A study of Mus musculus with 2 samples.

Results

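Genes that mark mast cells and basophils were read on arrays of cultured mouse T cells that had or lacked Menin, as a check on other cells in the culture. The genes were Cpa3, Mcpt8, Prss34, Fcer1a, Ms4a2, Hdc, Kit, Il3ra and Gata2. Of these 9 genes, 8 are among the 18430 named genes on the arrays. The genes were listed by name, and their non-control probes were found through the transcript accession that the scanner files give for each probe. A total of 9 probes were matched, 2 of them to Gata2 and 1 to each of 7 other genes. No probe was matched to Kit, the stem cell factor receptor, which was not analysed here.

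The series compared 1 array of Menin WT with 1 array of Menin KO, so there are no replicates, and every difference is given by its size without a test. Menin is the chromatin protein encoded by Men1, and both groups were primary CD4 T cells from spleens of female C57BL/6J mice. In both groups cells were enriched as naive with a CD4+CD62L+ isolation kit, then activated for 2 days on plate-bound antibody to TCR beta (3 µg/ml) with antibody to CD28 (1 µg/ml) and IL-2 (2.5 ng/ml). They then had 3 more days in IL-2 alone, with no cytokines named that would steer them to a helper type. The labels used here give neither the design of the deletion, nor the age or number of the mice, nor whether mice were pooled.

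Mast cells and basophils are granulated white blood cells that carry IgE on a high-affinity receptor. Crosslinking of that receptor releases granules filled with proteases and histamine, and both cell types also secrete interleukin 4 and related cytokines. They arise from bone marrow progenitors that depend on GATA factors, grow in stem cell factor or interleukin 3, and are not part of the T cell lineage. No single marker is unique to them, so the genes below are ordered by what they do in these cells.

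The upstream sequences of 5 of the genes are shown because GATA factors drive this lineage and because these 5 encode its granule proteases and the IgE receptor chains. Each run holds the 100 bases before the RefSeq transcription start on GRCm38.p6, in lower case on the strand of the gene, with GATAA or its reverse complement TTATC in capitals. Cpa3 lies at chr3:20242182-20242281 (minus strand), Mcpt8 at chr14:56085198-56085297 (minus), Fcer1a at chr1:173227230-173227329 (minus), Ms4a2 at chr19:11623720-11623819 (minus) and Prss34 at chr17:25298294-25298393 (plus).
Cpa3: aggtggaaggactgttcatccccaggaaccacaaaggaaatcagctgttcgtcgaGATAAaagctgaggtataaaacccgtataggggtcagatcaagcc
Mcpt8: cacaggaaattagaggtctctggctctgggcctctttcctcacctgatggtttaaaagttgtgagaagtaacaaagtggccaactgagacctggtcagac
Fcer1a: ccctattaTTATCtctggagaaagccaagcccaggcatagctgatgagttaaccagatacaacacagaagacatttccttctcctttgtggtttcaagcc
Prss34: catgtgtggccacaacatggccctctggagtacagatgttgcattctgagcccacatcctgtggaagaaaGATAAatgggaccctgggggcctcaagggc
Ms4a2: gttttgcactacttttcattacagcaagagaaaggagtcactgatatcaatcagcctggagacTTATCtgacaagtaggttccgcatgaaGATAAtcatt

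Over 250 bases before the start, searched on both strands, GATAA was found in Cpa3 (45 bases before the start), Fcer1a (92 bases), Prss34 (30 bases) and Ms4a2 (3 matches, the farthest at 224 bases). It was not found in that window of Mcpt8, Hdc, Kit, Il3ra or Gata2, and 22.6% of 32817 promoter windows of the same length hold it. TGANTCA, a core shared by the sites of AP-1 and Bach factors, was found in none of the 9 genes and in 6.75% of all windows. The match did not divide the genes by their array values: of the 4 genes with GATAA, Cpa3 and Fcer1a were over the 2-fold limit used here, Prss34 was inside it and Ms4a2 had no value, while Mcpt8, over the limit, had no match. A match of letters shows no binding.

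On either array 43379 non-control spots were read, of which 59.5% were well above background in WT and 63.5% in KO. The lowest signal well above background was 14.0 in WT and 10.4 in KO, so the KO array read slightly dimmer probes. The targeted gene Men1 read 1081 on the WT array against 459 on the KO array, 2.38-fold lower, and whether its probe lies in the deleted stretch is not given in the sources used here. Bach2, the repressor named in the series title, gave 4643 and 604. Processed signals of dim spots are surrogate values set by the scanner software. Each of the 9 listed genes that had a probe was read by 1 spot per probe and array. The error given with a signal is the scanner software's own estimate for that spot. Probes printed several times on the arrays had a KO minus WT difference that varied between spots by an SD of 0.259 on the log2 scale below a signal of 100 (36 probes) and 0.0541 above it (110 probes). Neither error covers differences between mice, cultures or labelling reactions.

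Among the 9 genes the largest differences were in granule proteases, but not in all of them. The RNA came from whole cultures, in which more cells of a type and more RNA per cell cannot be told apart. Cpa3, which encodes mast cell carboxypeptidase A, read 28.2 ± 3.98 in WT and 367 ± 36.7 in KO, and these ranges lie far apart. KO was 12.9-fold higher, a log2 difference of 3.69 ± 0.250 by the spot errors, and 79 of 12472 genes read on both arrays differed by more in that direction. Mcpt8, a granule protease used as a defining basophil marker, gave 13.7 ± 3.32 in WT, just under the lowest level well above background, and 162 ± 16.3 in KO. Its difference is therefore a bound of at least 11.4-fold. Prss34, a tryptase of basophils, gave 21.1 ± 3.94 and 25.1 ± 3.48. Its log2 difference of 0.24 was smaller than its spot error of 0.335, so the 2 arrays were not separated for the second basophil protease.

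The alpha and beta chains of the high-affinity IgE receptor were dim on both arrays. Fcer1a, the chain that binds IgE, gave 32.3 ± 4.32 in WT and 75.9 ± 7.89 in KO, which is 2.33-fold higher in KO (log2 difference 1.22 ± 0.244). Ms4a2, the beta chain that amplifies the signal, gave 3.35 ± 3.34 in WT and 6.67 ± 2.50 in KO. Neither array read it well above background, called undetected below, so no difference is given. Fcer1a was dim too: 38.0% of named probes were below it in WT and 44.4% in KO.

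Hdc, the enzyme that makes histamine from histidine, differed in the other direction. Its signal was 168 ± 17.1 in WT and 96.4 ± 9.89 in KO, which is 1.76-fold lower in KO (log2 difference -0.81 ± 0.208). This lies inside the 2-fold limit used throughout, but 92.9% of the genes read on both arrays had a larger KO minus WT difference. Hdc is also expressed outside mast cells and basophils.

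Il3ra, the interleukin 3 receptor alpha chain through which basophils are expanded, was read well above background on both arrays. Its signal was 2284 ± 228 in WT and 3017 ± 302 in KO, a log2 difference of 0.39 ± 0.204, inside the 2-fold limit. The gene for its ligand, Il3, stayed under the detection level on both (4.45 in WT, 3.70 in KO).

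Gata2, the transcription factor that mast cells and basophils require, was at the edge of detection. The brighter of its probes gave 7.84 ± 2.98 in WT and 18.1 ± 2.78 in KO, and the other gave 3.19 ± 3.18 and 16.7 ± 2.93. Both were well above background in KO only. Because the WT values lay under the detection level, only bounds are given, a log2 difference of 0.35 and 0.24. These bounds leave out the spot errors, which were 0.592 and 1.46 on the log2 scale for the measured differences. A KO excess of even that size is therefore not established by these spots.

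**Figure D1:**
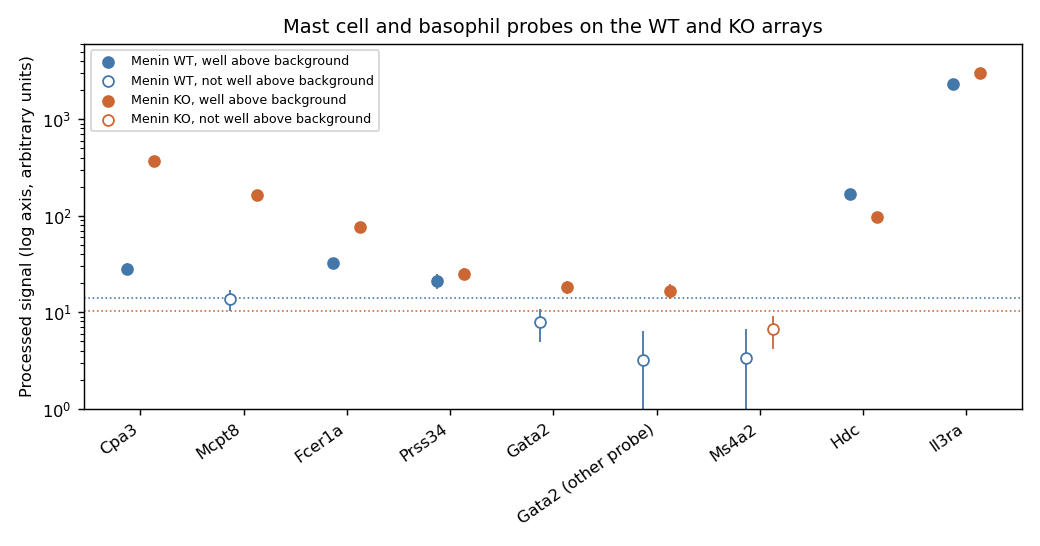
Processed signal of each probe on the WT (blue) and KO (orange) array, on a log axis; bars are the scanner software's error for the spot, open circles are not well above background, and dotted lines mark the lowest signal well above background on each array. Cpa3 and Mcpt8 lie far apart between the arrays, Prss34 nearly coincides, Hdc is the only gene lower in KO, and Ms4a2 is open on both arrays.

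Of the 8 genes with a probe, 5 were well above background in WT and 7 in KO. Over all 18430 named genes, 68.9% were well above background in WT and 73.6% in KO. A value or a bound was had for 7: 3 were at least 2-fold higher in KO (Cpa3, Mcpt8 and Fcer1a), none was at least 2-fold lower and 4 lay between (Prss34, Hdc, Il3ra and, as a bound, Gata2). Among all 13507 genes with a value or bound, 10.8% were at least 2-fold higher in KO and 5.14% at least 2-fold lower. Genes as dim as most of these passed the limit more often: of 3116 genes read on both arrays with a WT signal of 20 to 200, a range chosen after the values were seen, 19.4% were at least 2-fold higher and 5.42% lower. Over all 12472 genes read on both arrays 8.85% were at least 2-fold higher. The median log2 difference over the 7 genes was 0.39 against -0.005 over all genes. It was -0.11 after the normexp background correction, and 0.38 once the aberrant local backgrounds of 6 WT spots were replaced in that correction. With no filter on dim probes it was 1.09. The genes Mcpt8 and Gata2 have a value only because KO was bright enough, and 5.91% of all named genes were well above background in KO only and 1.2% in WT only.

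**Figure D2:**
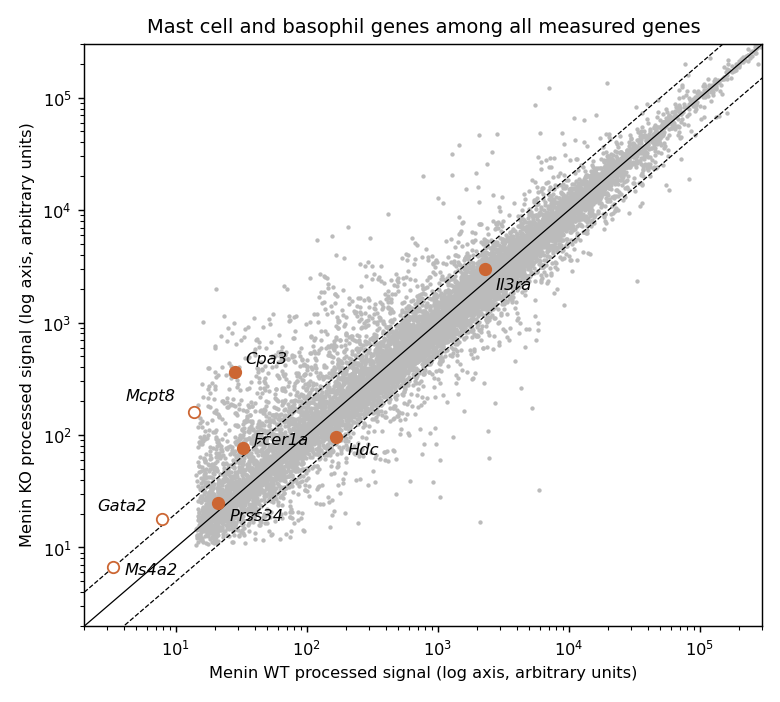
KO against WT processed signal of the 12472 genes read on both arrays (grey) on log axes, with the solid line at equality and dashed lines at 2-fold; filled orange points were read on both arrays and open ones on KO only or on neither. Cpa3 and Mcpt8 stand far above the upper dashed line, Fcer1a just above it, and Prss34, Hdc and Il3ra between the lines.

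The differences of Cpa3, Mcpt8, Fcer1a and Prss34 changed under the normexp background correction. Normexp as run here also adds an offset of 50 to every signal, which by itself shrinks log2 differences of dim probes. In these and the later normexp values, the part of the offset and that of the background were not separated. After normexp correction the log2 difference was 1.16 for Cpa3, a bound of 0.29 for Mcpt8, -0.51 for Fcer1a and -1.06 for Prss34, with 6 WT spots of aberrant local background behind the WT fit. With those backgrounds replaced it was 2.05 for Cpa3, at least 1.35 for Mcpt8, 0.37 for Fcer1a and -0.011 for Prss34. Fcer1a thus left the 2-fold class in both versions, while Prss34 passed the limit only with the backgrounds as given.

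**Figure D3:**
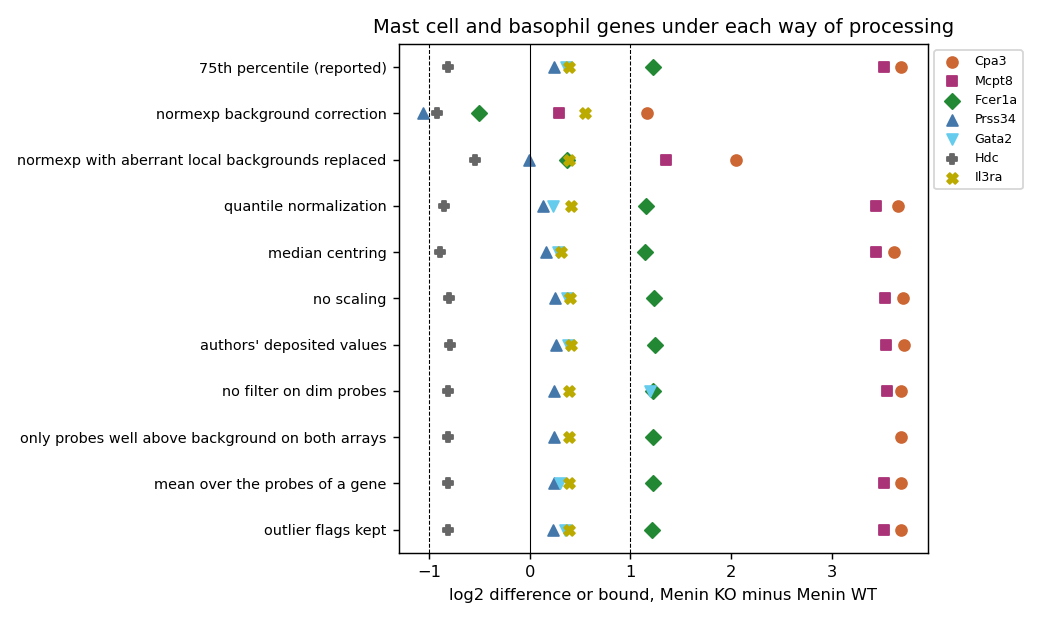
Log2 difference or bound of 7 genes (symbols) under the reported processing and 10 alternatives (rows), with dashed lines at 2-fold. Cpa3 stays right of the right dashed line in every row, while Fcer1a falls left of it in both normexp rows and Hdc stays between the lines.

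Wider lists of mast cell and basophil genes, drawn up with earlier results of these arrays known, were read the same way. Without the 9 genes they comprised 83 genes, of which 47 had a value or bound. Of these, KO exceeded WT by at least 2-fold for 19, WT exceeded KO for 3, and 25 lay between; the median was 0.43. For these lists and those that follow, the shares over all genes with a value or bound were 10.8% higher and 5.14% lower, and 19.4% higher among the dim genes counted above. A further 29 were well above background on neither array.

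Among 15 granule protein genes, 8 had a value or bound, with 5 at least 2-fold higher in KO, 1 at least 2-fold lower and 2 inside the limit. Besides Cpa3 and Mcpt8, the mast cell chymase gene Cma1 gave 43.1 in WT and 296 in KO (6.82-fold), and its other probe gave a bound of 2.33 on the log2 scale. Ctsg, cathepsin G, gave 46.1 and 158 (3.40-fold), and Srgn, the proteoglycan that packs granules in many blood cells including cytotoxic T cells, was 2.02-fold higher. By contrast the mast cell proteases Mcpt1, Mcpt2, Mcpt4 and Mcpt9 and the tryptases Tpsb2 and Tpsg1 were undetected on both arrays, at signals of 2.24 to 9.73. The tryptase relative Prss29 was 2.07-fold lower in KO, with 73.8 in WT and 35.9 in KO. After normexp the log2 difference was 0.81 for Cma1 and 0.14 for Ctsg, inside the limit, and the list median 0.21 against 1.39 as reported. With the aberrant backgrounds replaced, Cma1 was over the limit at 1.60, Ctsg was at 0.90 and the list median at 1.0. Srgn was at 0.94 with median centring, and Prss29 at -0.56 with the aberrant backgrounds replaced.

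Of 12 genes in the list of mediator enzymes 8 had a value, 5 at least 2-fold higher in KO, none at least 2-fold lower and 3 inside the limit. Gstm5, a glutathione transferase, was 35.3-fold higher (28.0 in WT, 999 in KO), and Ptgs1, the constitutive cyclooxygenase, 9.36-fold (29.9 and 283). Alox5, which starts leukotriene synthesis, was 8.17-fold higher and all 3 of its probes were higher in KO. Its partner Alox5ap was 3.99-fold higher. Hpgds, the prostaglandin D synthase of mast cells, was undetected on both arrays, and Ltc4s, the leukotriene C4 synthase, had a log2 difference of -0.73. After normexp the log2 difference was 0.87 for Ptgs1, 2.34 for Gstm5 (5.14 as reported) and 1.40 for Alox5 (3.03 as reported). With the aberrant backgrounds replaced, Ptgs1 was at 1.745, Gstm5 at 3.26 and Alox5 at 2.08.

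In the IgE receptor list 11 of 15 genes had a value, 5 at least 2-fold higher in KO, none at least 2-fold lower and 6 inside the limit. Fcer1g, the signalling chain that this receptor shares with other Fc receptors and natural killer receptors, gave 669 in WT and 5087 in KO (7.54-fold). The adaptor gene Lat2 was 10.2-fold higher, the kinase gene Lyn 5.75-fold and the phospholipase gene Plcg2 4.98-fold. The receptor kinase Syk differed by -0.50 and Btk by 0.32 on the log2 scale, both inside the limit. After normexp Lyn was at 0.80 and Lat2 at 2.53 on the log2 scale, and the list median was -0.14 against 0.62 as reported. With the aberrant backgrounds replaced, Lyn was at 1.59, Lat2 at 2.90 and the list median at 0.37. As background, Lyn, Plcg2 and Fcer1g are also used by other blood cells.

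Receptors for growth factors had 9 of 13 genes with a value or bound, 4 at least 2-fold higher in KO, none at least 2-fold lower and 5 inside the limit. Epor, the erythropoietin receptor, was 5.01-fold higher (a log2 difference of 2.32, and 1.62 after normexp). Csf2rb, the beta chain shared by the receptors for interleukin 3, interleukin 5 and GM-CSF, was 2.19-fold higher by its brightest probe, but another of its 3 probes gave 0.11 on the log2 scale, and after normexp it was at 0.24. Its relative Csf2rb2, specific to interleukin 3, gave 45.1 and 111 (2.44-fold, but -0.36 on the log2 scale after normexp). With the aberrant backgrounds replaced, Csf2rb was at 0.76 and Csf2rb2 at 0.53, both inside the limit. Kitl, the ligand of the Kit receptor, was at least 2.42-fold higher by 1 of its 2 probes and not detected by the other, and 0.33 on the log2 scale with the aberrant backgrounds replaced. The alpha chain Il5ra was undetected on both arrays.

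Other surface markers held fewer differences: 9 of 21 genes had a value or bound, 2 at least 2-fold higher in KO, none at least 2-fold lower and 7 inside the limit. The granule membrane protein gene Cd63, also found on lysosomes of other cells, was 6.61-fold higher and the adenosine receptor gene Adora3 3.06-fold (-0.061 on the log2 scale after normexp, when Cd63 was at 1.42 and the list median at -0.28 against 0.18 as reported). With the aberrant backgrounds replaced, Adora3 was at 0.70, Cd63 at 2.03 and the list median at -0.10. The more restricted receptors Mrgprb1, Mrgprb2, Mrgpra4 and Cd200r3 were undetected on both arrays. Enpp3 (2.95 in WT, 13.1 in KO) and Siglecf (2.88 and 27.9) were well above background in KO only. Enpp3 was too dim for a bound, and Siglecf was at least 1.98-fold higher (0.24 on the log2 scale with the aberrant backgrounds replaced). Of the 21 genes, 8 were well above background in WT, 11 in KO and 10 on neither. Over all named genes 5.91% were well above background in KO only.

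Transcription factors of the lineage differed in both directions. Of 16 genes, 9 had a value or bound, 1 at least 2-fold higher in KO, 2 at least 2-fold lower and 6 inside the limit. Gata1, the factor that mast cell, eosinophil, erythroid and megakaryocyte programs share, was 11.7-fold lower in KO, with 971 in WT and 84.0 in KO. Runx1 was 2.06-fold lower by its brighter probe and -0.40 on the log2 scale by the other (-0.35 for the first with the aberrant backgrounds replaced), and Lyl1 was 2.14-fold higher. Mitf, the factor of mast cells and pigment cells, and Spi1, encoding the myeloid factor PU.1, were undetected on both arrays. Zfpm1, the cofactor of GATA1, had a log2 difference of 0.12.

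Cytokine genes include several that T cells share with mast cells and basophils. Of 15 genes 10 had a value or bound, 6 at least 2-fold higher, 1 lower and 3 between, and the defining T helper type 2 cytokine Il4 gave 493 in WT and 2286 in KO. Il5 was at least 34.0-fold higher, Csf1 6.41-fold and Csf2 4.11-fold. The bound of Il5 on the log2 scale was 5.09 as reported, 1.65 after normexp and 2.74 once the aberrant backgrounds were replaced, and Csf2 was at 1.23 after normexp. Which cells of the culture made these transcripts was not tested.

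**Figure D4:**
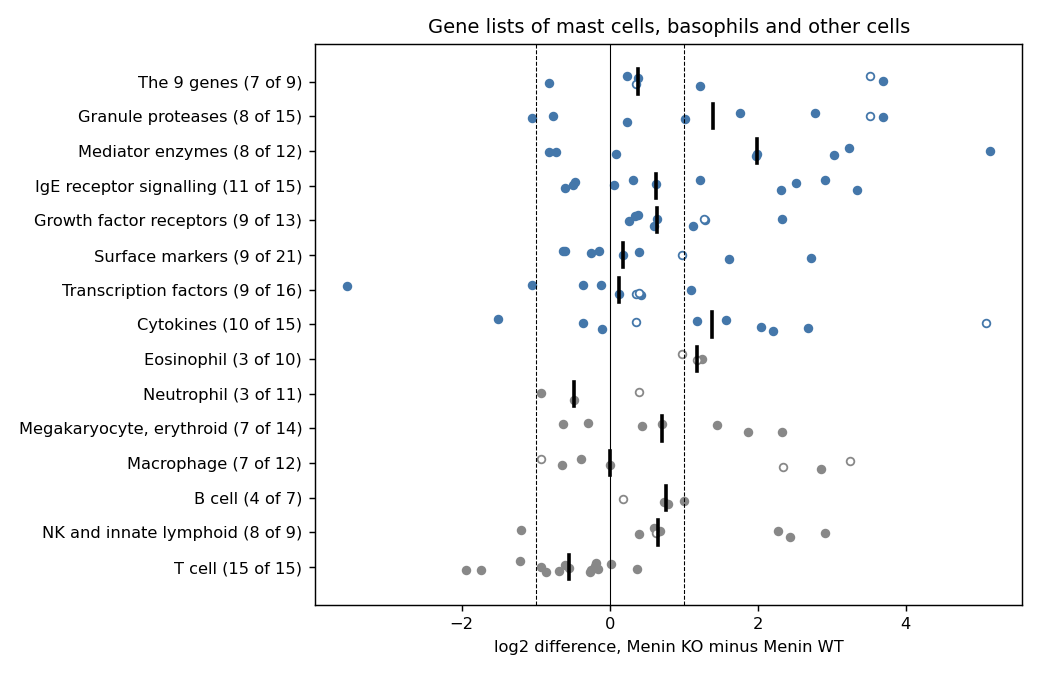
Log2 KO minus WT difference of each gene with a value (filled) or bound (open) in lists of mast cell and basophil genes (blue) and of other cells (grey); numbers give genes with a value or bound of genes listed, black bars mark list medians and dashed lines 2-fold. Under the reported processing the medians run from -0.56 (T cell markers) to 1.99 (mediator enzymes), an order that other settings change, and Gata1 is the point farthest to the left.

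Mcpt8 lies in a run of 15 serine protease genes that begins with Cma1 and ends with Gzmb, with the mast cell proteases on one side of it and Ctsg and the granzymes, the death-inducing proteases of cytotoxic lymphocytes, on the other. In this run 11 genes had a value or bound, 9 of them at least 2-fold higher in KO and none lower, where 10.8% and 5.14% of all genes were. On the granzyme side Gzme gave 22.4 in WT and 404 in KO (17.9-fold), Gzmd was 15.6-fold higher and Gzmg 27.8-fold. Their log2 differences were 4.16, 3.96 and 4.795 as reported and 1.32, 2.41 and 1.996 after normexp. On the mast cell side Mcpt4, Mcpt9, Mcpt2 and Mcpt1 were not well above background, Cma2 differed by -0.77 on the log2 scale and Cma1 at the far end was higher. Granzyme genes C to G are close copies, and the probe sequences were not used here, so cross-reading between these proteases was not tested.

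**Figure D5:**
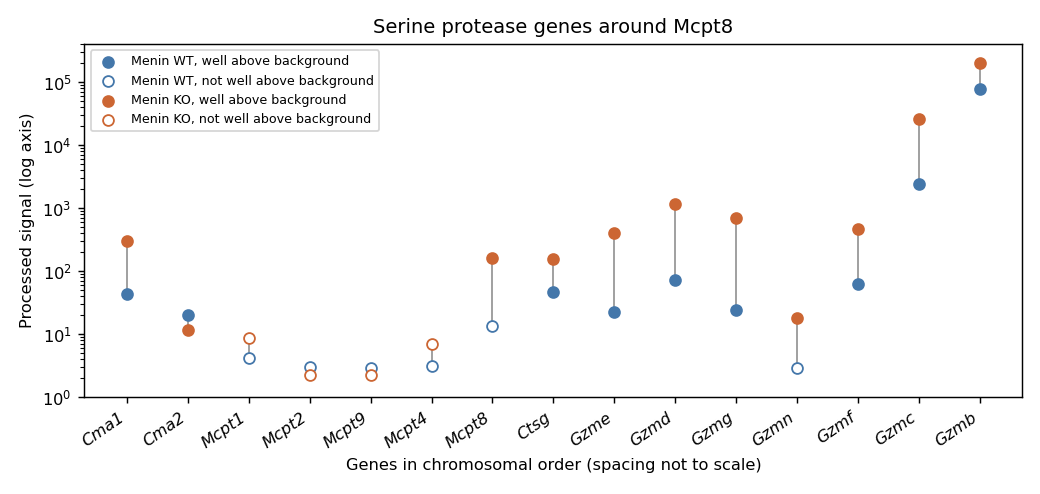
WT (blue) and KO (orange) processed signal of the 15 protease genes from Cma1 to Gzmb in chromosomal order, on a log axis with a grey line joining the arrays; open circles are not well above background. Mcpt8 sits at the boundary between 4 undetected mast cell proteases on its left and higher protease genes on its right.

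The neighbours of the other genes were counted the same way, in a window chosen after the data were seen. Over all genes with a value or bound, 10.8% were at least 2-fold higher in KO and 5.14% lower. Of the 5 nearest named protein-coding genes with a probe on either side of Cpa3, 5 had a value and none was 2-fold apart. Around Fcer1a 5 had a value or bound, none was at least 2-fold higher and 1 was lower. Around Prss34 6 had a value, 1 was higher (Baiap3) and 1 lower (Prss29). Around Ms4a2 8 had a value or bound, and 6 were at least 2-fold lower in KO, among them 5 genes of the same family such as Ms4a4d (8.32-fold lower). In contrast, Ms4a3, next to Ms4a2 and known from granulocyte progenitors and basophils, gave 2.90 in WT and 85.8 in KO (at least 6.07-fold higher). On the log2 scale this bound of 2.60 was 0.83 with the aberrant backgrounds replaced, and normexp as given left no value. Around Gata2 10 had a value or bound, with 1 at least 2-fold higher and 1 lower, around Hdc 8 with 1 higher, around Il3ra 7 with 1 higher, and around Kit 7 with 2 lower.

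Markers of other cells were read beside these genes. Their summed signals include the values of undetected genes and can rest largely on a single gene. Of 10 eosinophil markers 1 was well above background in WT and 4 in KO. Their summed signal was 56.4 in WT and 125 in KO, and the granule protein genes Epx and Prg3 were undetected on both arrays. Ccr3 was 2.38-fold higher by 1 of its 2 probes (-0.86 on the log2 scale after normexp) and not detected by the other. Alox15 was at least 2.26-fold higher (0.22 on the log2 scale with the aberrant backgrounds replaced, and no value after normexp as given). Neutrophil markers had a summed signal of 182 and 127, with none of the 3 of 11 genes that had a value or bound at least 2-fold apart, and S100a8, S100a9 and Elane undetected on both arrays.

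Markers of megakaryocytes and erythroid cells, which share GATA factors with mast cells, had a summed signal of 528 in WT and 1812 in KO (list median 0.71, and -0.84 after normexp). Of 14 genes 7 had a value, and 3 of these were at least 2-fold higher in KO (Epor, Tfr2 at 3.64-fold and Hba-a1 at 2.74-fold), and the platelet gene Pf4 was undetected on both arrays. Macrophage markers summed to 388 and 704. Of 12 genes 7 had a value or bound and 3 of these were higher, among them Fcgr3 (at least 9.50-fold) and Cd14 (7.25-fold). C1qa and C1qc were undetected on both arrays. B cell markers summed to 910 and 1608. Of 7 genes 4 had a value or bound and 1 of these was higher (Ms4a1, 2.01-fold), while Pax5 was not detected. Natural killer and innate lymphoid markers summed to 2280 and 7762, of which Fcer1g, also a mast cell gene, gave 669 and 5087. Of 9 genes 8 had a value or bound, with 3 of these higher, Fcer1g among them, and 1 lower (Eomes, 2.30-fold).

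The labelled cell type was checked against its own markers. All 15 T cell genes were well above background on both arrays, with a summed signal of 499761 in WT and 353054 in KO. None was at least 2-fold higher in KO, 3 were lower (Cd6 3.84-fold, Cd5 3.32-fold and Cd2 2.32-fold) and 12 lay between. Cd3e, a chain of the T cell receptor complex, gave 1801 and 1584, and Cd4 gave 443 and 279. The part that other cells had in the higher Cpa3, Mcpt8 and Fcer1a signals was not tested.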

How the data were processed

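Total RNA (500 ng) was amplified and Cy3-labelled for 1-colour Agilent arrays, per the labels' protocols. Both arrays shared 1 slide and 1 scan, and their probes are annotated on mm9, per the file headers. The scanner software was Feature Extraction, version 10.7.3.1 per the file headers and 10.7 per the submitters' processing notes. The intensity used was the processed signal the authors deposited, background-subtracted and detrended on a linear scale, with dim spots at a surrogate value and arrays not scaled to each other. Flags for background, outliers and control spots (values with no unit) came from the same deposited files. The authors' value table holds log2 values, equal to log2 of that signal minus a constant per array within 0.01 for at least 99.98% of probes (column medians -3.97 in WT and -3.90 in KO), which settles scale, centring and direction.

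Detected means well above background by the scanner flag. Outlier spots were left out (115 in WT, 103 in KO), and none was saturated. Signals were log2-transformed, reduced by the array's 75th percentile over non-control spots and averaged per probe. Of 41174 probes, 27042 were named through unversioned accessions in a RefSeq table of GRCm38.p6, and 14132 were not. That table gave names and gene order only. Promoter sequences came from a RefSeq table on GRCm38.p6, and all 9 genes matched. A gene took its brightest detected probe. For a gene detected on 1 array only, the undetected side was set to its own value or to the lowest detected level of that array, whichever was higher, and the difference is a bound, written "at least N-fold". The size limit was 2-fold.

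The genes and lists were chosen with earlier results of these data known. Named genes were the 9 genes, Men1, Bach2, Cd3e, Cd4 and up to 4 genes per list with the largest difference. Defining markers that were undetected, other listed genes and neighbours were named after their values were seen. Alternatives were run with Python 3.11.15, R 4.3.3 and limma 3.58.1. Normexp (offset 50) used median spot signals and local median backgrounds, since no mean spot signal was used here. The 2-fold rule was checked on simulated data with shifts set in bright genes only. That check did not cover genes as dim as most of these, nor the bounds. The number of arrays limits the precision.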

Additional observations from a re-analysis of the deposited data

How the results depend on the processing

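With 3 of the 9 genes at least 2-fold higher in KO and none lower as reported, the normexp correction gave 1 higher (Cpa3) and 1 lower (Prss34). Over all genes with a value or bound, 10.8% were higher and 5.14% lower as reported, and 4.72% and 13.2% after normexp. With the 6 aberrant WT backgrounds replaced, normexp gave 2 higher (Cpa3 and Mcpt8) and none lower, against 5.76% and 2.79% of all genes. Both normexp versions add the offset of 50, which shrinks differences of dim genes. A 1.5-fold limit gave 3 higher and 1 lower (Hdc), against 17.3% and 12.7% of all genes. Normexp as given turned the sign of these values, among others: Fcer1a (-0.51), Prss34 (-1.06), Adora3 (-0.061), Csf2rb2 (-0.36), Ccr3 (-0.86) and the eosinophil list median (1.18 as reported, -0.86). With the aberrant backgrounds replaced, Fcer1a was at 0.37, Prss34 at -0.011, Adora3 at 0.70, Csf2rb2 at 0.53, Ccr3 at 0.15 and the eosinophil median at 0.22. The eosinophil median was -0.34 with no filter on dim probes. Normexp as given also turned the medians of the 9 genes (-0.11), the IgE receptor (-0.14), surface marker (-0.28), megakaryocyte and erythroid (-0.84), macrophage (-0.80) and natural killer (-0.37) lists. With the aberrant backgrounds replaced, these medians were 0.38, 0.37, -0.10, 0.041, -0.14 and 0.135 in the same order. The order of list medians changed too: the mediator enzyme median was 0.63 with no filter, below cytokines (1.18), and the T cell median -0.29 after normexp, above neutrophils (-1.14). Cpa3 kept at least a 2-fold difference in all 10 alternatives that recomputed its value (1.16 to 3.71), and Mcpt8 in 8 of the 9 that gave it a value (0.29 to 3.55). Gata2, a bound of 0.35, was 1.19 with no filter and had no value in either normexp version. Over all genes, 67.7% of those at least 2-fold apart were higher in KO, against 26.3% after normexp, or 67.3% when 6 aberrant WT backgrounds were replaced in it. The other scalings moved the median of all genes by less than 0.1, from -0.005 to between -0.08 and 0.02. Signals near 14.0 in WT and 10.4 in KO limit what can be read for Mcpt8, Gata2, Prss34 and Ms4a2. No paired analysis was possible because each group held 1 array.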
